A study of Homo sapiens with 13 samples.

Results

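The genes described here are mesenchymal and extracellular matrix genes: FN1, VIM, COL5A2, COL3A1, COL1A1, SPON2, CDH2, SNAI1, SNAI2 and ZEB1. They were picked by symbol from the 22613 entries of each expression table. Of these 10 genes, 8 are described with values, and CDH2 and SNAI2 are not analysed here. The choice was made with results of these data known, among them the differences of COL5A2 and SPON2 between the siEZH2 library and the control. All differences below are therefore descriptions. Of the 8 genes, 7 had a mean level of at least 0.5 FPKM (fragments counted on a transcript, corrected for its length and for the number of mapped fragments) and were among the 15780 genes kept, and ZEB1, with a mean of 0.437 FPKM, was not.

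RNA sequencing was performed on LNCaP-abl cells, a subline of the LNCaP prostate cancer cells that grows without androgen. All libraries came from cells of passages 53 to 60 in medium with steroid-depleted (charcoal-stripped) serum, transfected with a pool of siRNAs and harvested after 72 h. The 12 knockdown libraries were labelled siBRCA1 and siBRCA2 (DNA repair factors), siCTCF and siRAD21 (an insulator protein and a cohesin subunit), siEED and siEZH2 (2 subunits of the Polycomb repressive complex PRC2), siFOXA1 and siFOXM1 (forkhead transcription factors), siKDM1A (a histone demethylase), siMALAT1 and siPCAT1 (long non-coding RNAs) and siSMARCA4 (an ATPase of SWI/SNF chromatin remodelling). The control library was labelled siControl2. Each group had 1 library, so no value below has a replicate error, no difference was tested, and the read depth is unknown.

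Carcinoma cells that pass through an epithelial-mesenchymal transition lower E-cadherin and take up genes of fibroblast-like cells, among them the intermediate filament vimentin, N-cadherin, fibronectin and fibrillar collagens. The transcription factors of the SNAI and ZEB families repress E-cadherin by binding E-box motifs. LNCaP cells are luminal epithelial cells, in which most of these genes are known to be low.

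The libraries were checked against their labels. Of the 11 targets checked, 8 were lowest in their own library. BRCA1 was at 1.83 FPKM in its own library, against 11.1 FPKM in the control, and 2 other libraries were lower. BRCA2 was at 1.23 FPKM in its own library, against 3.25 FPKM in the control, and 8 other libraries were lower. In the library labelled siMALAT1, by contrast, MALAT1 reached 21.7 FPKM, against 16.4 FPKM in the control, so no lowering of the target was seen. Whether the label or the knockdown was at fault was not tested. The luminal keratin gene KRT8 was at 84.2 to 223 FPKM in the knockdowns, against 127 FPKM in the control. KLK3, which encodes prostate-specific antigen, was below 1 FPKM in every library. Of 13 markers of fibroblasts and smooth muscle, 4 had values (PDGFRB, ACTA2, TAGLN and MYH11), and their summed level was 6.35 to 15.2 FPKM in the knockdowns, against 9.64 FPKM in the control. PDGFRB, a receptor of fibroblasts and pericytes, was at 0.0420 to 0.290 FPKM in the knockdowns, against 0.119 FPKM in the control. In such bulk libraries, more cells expressing a gene and more RNA per cell cannot be told apart.

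Promoter sequences were taken from RefSeq on the GRCh38.p14 build, which is not the build of the expression values, and 4 of the 8 genes matched (FN1, VIM, SPON2 and ZEB1). Each window runs 5′ to 3′ on the gene's strand from 250 bases before the start of a transcript to 50 bases after it. The windows of FN1 and SPON2 are shown because these are the matched genes that lay at least 2-fold from the control in some knockdown. For SPON2 the first of 3 windows is shown, the only 1 of them that held CAGGTG. The third of 7 ZEB1 windows is shown because it held the most copies of CAGGTG, an E-box form that SNAI and ZEB factors can bind. Capitals mark CAGGTG on either strand (CACCTG on the printed strand when it lies on the other) and the cAMP response element TGACGTCA, which is its own reverse complement; the marked copies do not overlap.
FN1, chr2:215436019-215436318, minus strand: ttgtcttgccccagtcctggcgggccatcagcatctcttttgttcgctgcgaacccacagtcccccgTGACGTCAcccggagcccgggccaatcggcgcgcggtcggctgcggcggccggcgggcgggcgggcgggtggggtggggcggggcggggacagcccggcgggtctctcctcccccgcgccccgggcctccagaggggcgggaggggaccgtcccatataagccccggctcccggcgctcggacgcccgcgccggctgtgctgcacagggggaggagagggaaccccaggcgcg
SPON2, chr4:1208795-1209094, minus strand: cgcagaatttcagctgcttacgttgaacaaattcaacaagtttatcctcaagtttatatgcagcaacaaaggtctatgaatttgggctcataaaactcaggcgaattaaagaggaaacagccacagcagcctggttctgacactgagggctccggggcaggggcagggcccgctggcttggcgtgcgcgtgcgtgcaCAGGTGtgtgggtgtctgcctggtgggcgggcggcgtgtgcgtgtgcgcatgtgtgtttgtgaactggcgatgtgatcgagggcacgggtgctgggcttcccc
ZEB1, chr10:31318966-31319265, plus strand: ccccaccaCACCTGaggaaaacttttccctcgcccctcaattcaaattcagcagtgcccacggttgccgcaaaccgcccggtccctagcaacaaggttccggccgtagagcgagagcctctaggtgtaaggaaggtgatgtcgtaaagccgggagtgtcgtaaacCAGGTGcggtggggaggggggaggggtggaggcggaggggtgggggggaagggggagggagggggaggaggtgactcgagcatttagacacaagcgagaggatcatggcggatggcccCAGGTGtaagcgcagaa
The FN1 window held TGACGTCA with its first base at -183 from the start, a motif present in 1.85% of all 35116 windows of this length. It held 38 CpG dinucleotides, a number that 9.91% of the windows reach or exceed. CAGGTG on either strand was in 20.6% of all windows, in 1 of 3 SPON2 windows, in 2 of 7 ZEB1 windows and in neither the FN1 nor the VIM window. A match of letters is a description of the window and not evidence of binding.

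COL5A2, which encodes the alpha 2 chain of type V collagen, a minor fibrillar collagen that sets the diameter of type I collagen fibrils, was the most abundant of the collagens here and varied the most. It was at 51.9 FPKM in siRAD21, 49.4 FPKM in siEZH2, 28.0 FPKM in siCTCF, 24.1 FPKM in siSMARCA4, 21.6 FPKM in siKDM1A and 21.5 FPKM in the library labelled siMALAT1, against 12.6 FPKM in the control. It was at 13.7 FPKM in siPCAT1, 13.6 FPKM in siEED, 12.4 FPKM in siFOXM1, 11.02 FPKM in siBRCA1, 8.70 FPKM in siBRCA2 and 5.53 FPKM in siFOXA1, against the same control value. The siRAD21 and siEZH2 libraries stood together at the top, siFOXA1 alone at the bottom, and the highest level was 9.37 times the lowest. On the log2(FPKM + 1) scale, on which a difference of 1 is called 2-fold here and changes of low genes are understated, COL5A2 was higher than the control by 1.96 in siRAD21, 1.89 in siEZH2 and 1.10 in siCTCF, and lay at -1.05 in siFOXA1. Among all genes kept, 0.906% in siRAD21, 0.894% in siEZH2 and 1.27% in siCTCF were at least 2-fold higher than the control, and 4.22% in siFOXA1 were at least 2-fold lower. Its standard deviation over the 13 libraries was 0.88 log2 units, which 178 genes (1.13%) reached or exceeded.

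COL3A1, the type III collagen of elastic connective tissue, was near 1 FPKM in most libraries. Its highest level was 2.67 FPKM in siEZH2, followed by 1.99 FPKM in siKDM1A, 1.31 FPKM in siCTCF and 1.26 FPKM in siFOXA1, against 0.888 FPKM in the control. Its lowest were 0.445 FPKM in siFOXM1 and 0.469 FPKM in siBRCA2, and the other 6 knockdowns were at 0.742 to 1.10 FPKM. siEZH2 lay just under the 2-fold mark, at 0.96, and siKDM1A at 0.66. With a pseudocount of 0.1 in place of 1, both passed it, at 1.49 in siEZH2 and 1.08 in siKDM1A.

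COL1A1, the alpha 1 chain of type I collagen, was below the control in 10 of 12 knockdowns. The control was the third highest of the 13 libraries, so these signs rest largely on that 1 library. It was at 0.421 FPKM in siBRCA1 and 0.680 FPKM in siBRCA2, the lowest libraries, against 1.33 FPKM in the control. The libraries above the control were siFOXA1, at 1.80 FPKM, and the library labelled siMALAT1, at 1.77 FPKM. No knockdown was 2-fold from the control, and the largest difference, -0.71 in siBRCA1, passed that mark at -1.46 with a pseudocount of 0.1. In siEZH2, where COL5A2 and COL3A1 were high, COL1A1 was at 1.10 FPKM. COL1A2 and COL5A1, whose chains join those of COL1A1 and COL5A2 in the same trimers, are not analysed here.

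**Figure D1:**
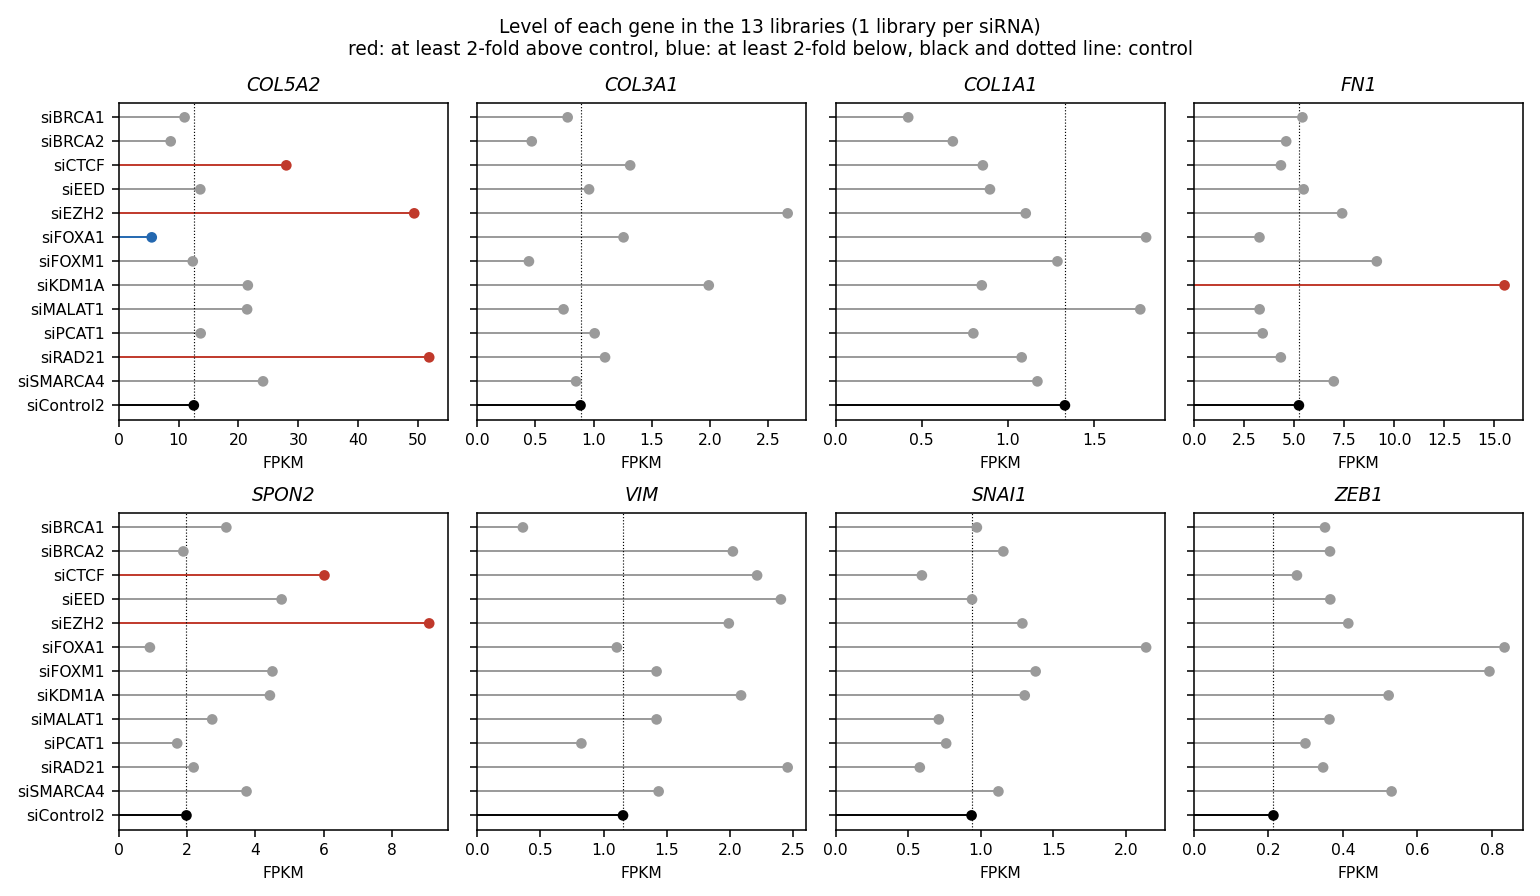
Level of each gene in FPKM (horizontal axes, each from 0 with its own range) in the 12 knockdown libraries and the control at the bottom, 1 point per library. COL5A2 reached 51.9 FPKM in siRAD21 and 49.4 FPKM in siEZH2 against 12.6 FPKM in the control, FN1 stood out in siKDM1A at 15.5 FPKM, and the ZEB1 level was lowest in the control.

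COL3A1 and COL5A2 are neighbours on chromosome 2, in the RefSeq order GULP1, COL3A1, COL5A2, WDR75, and these flanking genes were examined after the collagen values had been seen. The collagens did not keep a common pattern, and neither did the flanks. In siRAD21, COL5A2 was higher by 1.96, while COL3A1 differed from the control by 0.15, GULP1 by 0.14 and WDR75 by -0.15. In siEZH2, COL5A2 was higher by 1.89 and COL3A1 by 0.96, while GULP1, which encodes an adaptor of engulfment receptors, was at 60.9 FPKM, against 112 FPKM in the control (-0.87), and WDR75, a ribosome biogenesis gene, differed by 0.15. In siFOXA1, COL5A2 was at -1.05 and COL3A1 at 0.26, with GULP1 at -0.63 and WDR75 at -0.40. The largest difference of GULP1 was -1.21 in siKDM1A, where both collagens lay above the control.

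**Figure D2:**
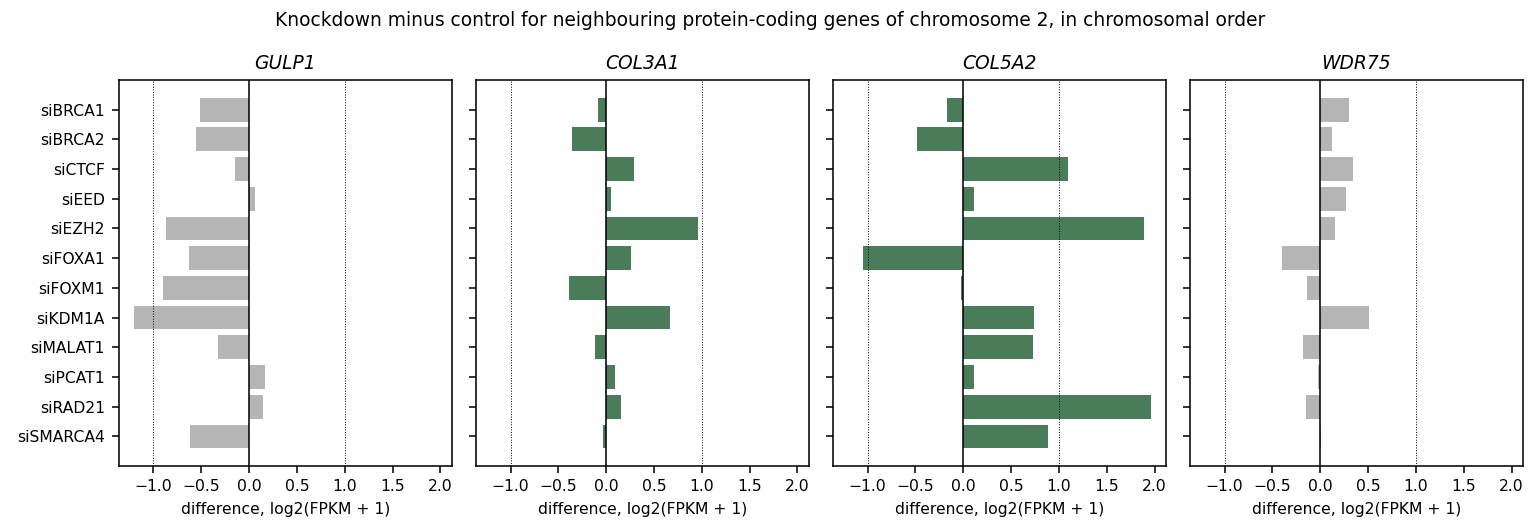
Difference of each knockdown from the control on the log2(FPKM + 1) scale (horizontal axes, dotted lines at -1 and 1) for the collagen genes in green and their flanking genes in grey. In siRAD21 the bar of COL5A2 reaches 1.96 while GULP1, COL3A1 and WDR75 stay between -0.15 and 0.15.

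FN1 encodes fibronectin, a matrix glycoprotein that binds integrins and collagen. It was highest in siKDM1A, at 15.5 FPKM, followed by 9.13 FPKM in siFOXM1, 7.40 FPKM in siEZH2, 6.99 FPKM in siSMARCA4, 5.48 FPKM in siEED and 5.42 FPKM in siBRCA1, against 5.24 FPKM in the control. It was at 4.61 FPKM in siBRCA2, 4.34 FPKM in both siCTCF and siRAD21, 3.43 FPKM in siPCAT1, 3.28 FPKM in the library labelled siMALAT1 and 3.27 FPKM in siFOXA1, against the same control value. siKDM1A stood alone at the top, 0.70 log2 units above siFOXM1, and the control lay in the middle, with 6 knockdowns above and 6 below it. The difference of siKDM1A from the control was 1.40, and 0.754% of all genes kept were at least 2-fold higher in that library. In siFOXM1 the difference was 0.70. ATIC, a purine synthesis gene that overlaps FN1 in RefSeq, was at 76.5 to 107 FPKM over the 13 libraries, and no source used here says whether strand was used in the counting.

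SPON2 encodes spondin-2, a secreted matrix protein that binds integrins of immune cells and is known as a prostate cancer serum marker. It was at 9.09 FPKM in siEZH2, 6.03 FPKM in siCTCF, 4.77 FPKM in siEED, 4.50 FPKM in siFOXM1, 4.43 FPKM in siKDM1A and 3.74 FPKM in siSMARCA4, against 1.99 FPKM in the control. It was at 3.15 FPKM in siBRCA1, 2.74 FPKM in the library labelled siMALAT1, 2.20 FPKM in siRAD21, 1.90 FPKM in siBRCA2, 1.71 FPKM in siPCAT1 and 0.916 FPKM in siFOXA1. The control lay in the lower part of the order, with 9 knockdowns above it. The differences were 1.76 in siEZH2 and 1.23 in siCTCF, the 2 libraries past the 2-fold mark, then 0.95 in siEED, 0.88 in siFOXM1, 0.86 in siKDM1A and -0.64 in siFOXA1. With a pseudocount of 0.1, siEED, siFOXM1 and siKDM1A also passed it upward and siFOXA1 downward, at 1.22, 1.14, 1.12 and -1.04. LOC100130872, an overlapping entry, was at 0.379 to 0.509 FPKM over the 13 libraries. SPON1, the related spondin-1 gene, is not analysed here.

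VIM, the gene of the intermediate filament vimentin, was low throughout, at 0.362 to 2.45 FPKM in the knockdowns, against 1.15 FPKM in the control. The upper libraries were close to each other, with 2.45 FPKM in siRAD21, 2.40 FPKM in siEED, 2.21 FPKM in siCTCF, 2.09 FPKM in siKDM1A, 2.02 FPKM in siBRCA2 and 1.99 FPKM in siEZH2. The lowest was siBRCA1, at 0.362 FPKM, 0.42 log2 units below siPCAT1, at 0.824 FPKM. VIM was above the control in 9 of 12 knockdowns and 2-fold from it in none, with differences of 0.68 in siRAD21 and -0.66 in siBRCA1 at the extremes. With a pseudocount of 0.1, these were 1.03 in siRAD21 and -1.44 in siBRCA1.

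Of the transcription factors, SNAI1, which encodes SNAIL, was at 0.581 to 2.14 FPKM in the knockdowns, against 0.938 FPKM in the control. siFOXA1 was highest, at 2.14 FPKM (a difference of 0.70), followed by 1.38 FPKM in siFOXM1, 1.30 FPKM in siKDM1A and 1.29 FPKM in siEZH2. With a pseudocount of 0.1 the siFOXA1 difference passed the 2-fold mark, at 1.11. siRAD21, at 0.581 FPKM, and siCTCF, at 0.595 FPKM, were lowest and close to each other. ZEB1 was below 1 FPKM in every library. It was at 0.834 FPKM in siFOXA1, 0.793 FPKM in siFOXM1, 0.530 FPKM in siSMARCA4, 0.523 FPKM in siKDM1A and 0.276 to 0.414 FPKM in the other 8 knockdowns, against 0.213 FPKM in the control. With a pseudocount of 0.1 the ZEB1 differences were 1.58 in siFOXA1, 1.51 in siFOXM1 and 1.01 in siSMARCA4. The control was the lowest of the 13 libraries, so the sign of its 12 differences rests on that 1 library, and siFOXA1 and siFOXM1 were the highest libraries for ZEB1 as for SNAI1. ZEB1-AS1, an overlapping antisense transcript, was at 5.12 to 12.1 FPKM in the knockdowns, against 7.84 FPKM in the control, and reads of overlapping genes cannot be told apart without strand. ZEB2 is not analysed here, and SNAI3, a related gene, was at 0.539 to 1.64 FPKM in the knockdowns, against 1.24 FPKM in the control.

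CDH1, the E-cadherin gene that SNAI and ZEB factors repress, stayed between 87.3 and 203 FPKM in the knockdowns, against 135 FPKM in the control. In siFOXA1, the library highest for SNAI1 and ZEB1, CDH1 was lowest, at 87.3 FPKM. In siFOXM1, which came next for both factors, CDH1 was highest, at 203 FPKM. In siKDM1A, where FN1 was highest, it was at 173 FPKM, and in siEZH2 and siRAD21, where COL5A2 was highest, at 166 and 174 FPKM. In siCTCF, which came next for COL5A2, it was at 88.5 FPKM, so libraries with high COL5A2 lay on both sides of the CDH1 level of the control.

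Counted over all libraries, 6 of the 84 differences of the 7 kept genes were at least 2-fold higher than the control and 1 was at least 2-fold lower. COL5A2, SPON2 and FN1 accounted for them, and COL3A1, COL1A1, VIM and SNAI1 for none. Over all genes kept and the 12 knockdowns together, 1.1% of the differences were at least 2-fold higher and 2.04% at least 2-fold lower, and 16% of the genes were at least 2-fold from the control in some knockdown. The siEZH2 differences of COL5A2 and SPON2, counted here, were among the results known when the genes were chosen. The counts and the siEZH2 median below are therefore not independent of that choice. The 7 differences lay in 5 knockdowns, and the other 7 knockdowns had 0. As the background for these counts, the shares of all genes at least 2-fold higher and lower were 0.45% and 0.944% in siBRCA1, 0.767% and 0.76% in siBRCA2, 0.817% and 0.741% in siEED, 2.59% and 3.6% in siFOXM1, 0.387% and 1.57% in the library labelled siMALAT1, 0.323% and 1.33% in siPCAT1, and 0.494% and 1.97% in siSMARCA4. In the 5 libraries with a member past the mark, the shares not given above were 2.85% lower in siCTCF, 3.09% lower in siEZH2, 1.55% lower in siKDM1A, 1.88% lower in siRAD21 and 3.52% higher in siFOXA1. In siEZH2 the median difference of the 7 genes was 0.47, beside 0.05 over all genes kept, and in siKDM1A 0.66 beside 0.01. In siCTCF it was 0.29 and in siSMARCA4 0.18, and the lowest medians were -0.15 in siBRCA2 and -0.14 in siPCAT1. The summed level of the 4 fibroblast and smooth muscle markers was 13.1 FPKM in siEZH2, 12.8 FPKM in siKDM1A, 15.2 FPKM in siCTCF and 9.47 FPKM in siRAD21, against 9.64 FPKM in the control, and its part in these differences was not tested. TAGLN made up most of that sum, at 10.8 FPKM in siEZH2 and 9.75 FPKM in siKDM1A, against 6.15 FPKM in the control. ACTA2 was at 1.48 and 2.15 FPKM in the same knockdowns, against 2.68 FPKM, and MYH11 at 0.598 and 0.578 FPKM, against 0.696 FPKM. The median difference of the 3 kept markers was -0.09 in siEZH2, -0.10 in siKDM1A, -0.11 in siRAD21 and 0.57 in siCTCF.

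All 12 comparisons share the control library, so each knockdown was also set against the median of the other 11. COL5A2 was then at 1.85 in siRAD21, 1.78 in siEZH2 and 0.98 in siCTCF, and at -1.78 in siFOXA1 and -1.21 in siBRCA2. SPON2 was at 1.28 in siEZH2, 0.76 in siCTCF and -1.31 in siFOXA1, so the siCTCF values of COL5A2 and SPON2 no longer reached 2-fold. FN1 was at 1.56 in siKDM1A and VIM at -1.13 in siBRCA1. Against this reference, the differences of all 7 kept genes were positive in siEZH2, with a median of 0.58, beside 0.03 over all genes kept. In siKDM1A 6 of 7 were positive, with a median of 0.39, beside -0.005 over all genes kept. A positive value does not make a library the highest: siEZH2 ranked 6 of the 13 libraries for both VIM and COL1A1. The share of all genes with a positive difference is not given here. Against the median of the other knockdowns, the shares of all genes at least 2-fold higher were 0.323% in siEZH2, 0.311% in siKDM1A and 0.475% in siRAD21. The shares at least 2-fold lower were 2.49% in siFOXA1, 0.494% in siBRCA2 and 0.583% in siBRCA1. No gene among the 7 was set apart in 1 library by at least 1 log2 unit from all the other 12, as 1.88% of the genes kept were.

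**Figure D3:**
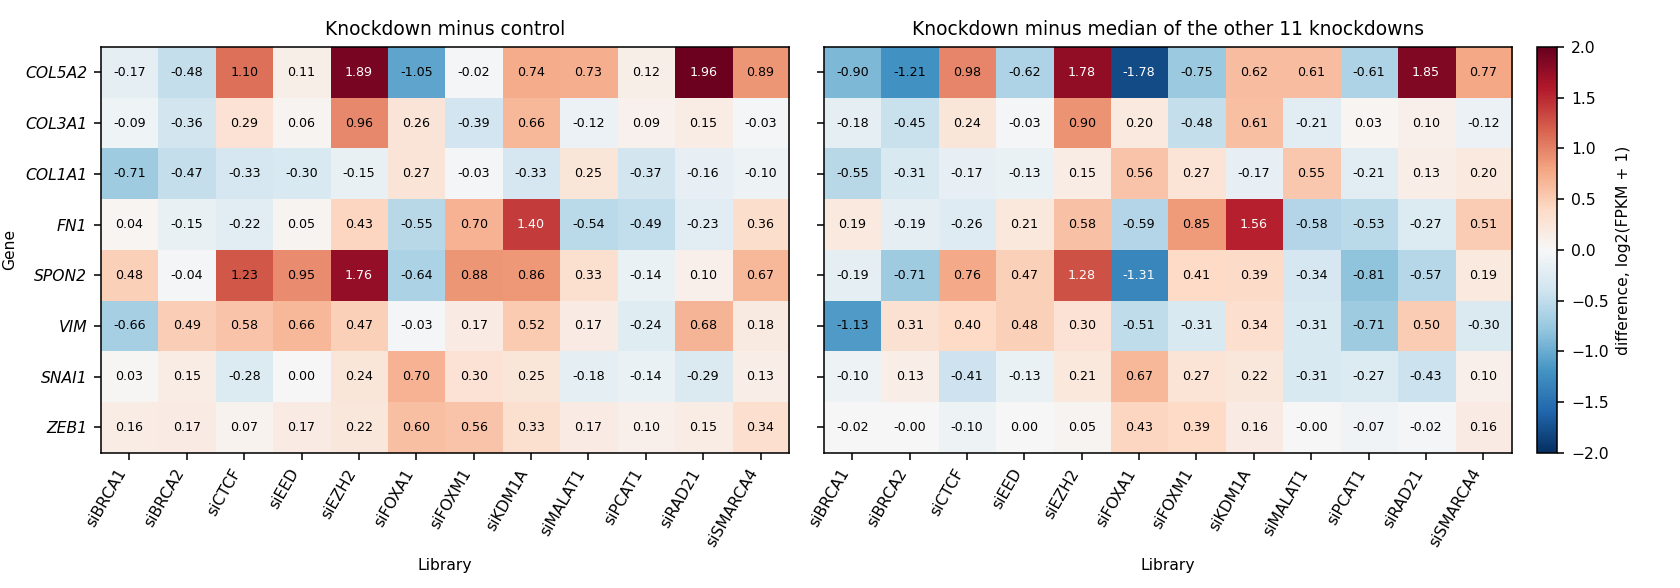
Difference of each knockdown (columns) for each gene (rows) on the log2(FPKM + 1) scale, from the control on the left and from the median of the other 11 knockdowns on the right. COL5A2 in siRAD21 (1.96 left, 1.85 right) and siEZH2 (1.89, 1.78) and FN1 in siKDM1A (1.40, 1.56) keep their values on both sides, while SPON2 in siCTCF is at 1.23 on the left and 0.76 on the right.

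EZH2 and EED belong to the same complex, and their libraries were compared directly. COL5A2 was at 49.4 FPKM in siEZH2 and 13.6 FPKM in siEED, a difference of 1.78, and this was the only kept gene past the 2-fold mark, beside 1.05% of all genes higher and 2.81% lower. COL3A1 differed by 0.90, SPON2 by 0.81 and FN1 by 0.37, all higher in siEZH2, and VIM by -0.19. EED itself was at 4.13 FPKM in siEED, against 8.94 FPKM in the control, and EZH2 at 2.20 FPKM in siEZH2, against 16.4 FPKM in the control, so the targets were not lowered to the same extent. CTCF and cohesin occupy many of the same sites. In siCTCF, SPON2 was at 6.03 FPKM, against 2.20 FPKM in siRAD21, a difference of 1.14, beside 1.84% of all genes at least 2-fold higher and 1.79% lower, while COL5A2 was lower in siCTCF by 0.87 log2 units. The differences of the other kept genes ran from -0.17 for COL1A1 to 0.14 for COL3A1.

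The genes whose log2(FPKM + 1) pattern over the 13 libraries was most like that of each member were taken from the other genes with a standard deviation of at least 0.3, 3774 of them for COL1A1 and SNAI1 and 3773 for each other member. These correlations are descriptions over single libraries that share a cell line and a common scaling. For COL5A2 they were ZHX2, a transcriptional repressor (Pearson r 0.92, Spearman rho 0.92), FOXA1 (0.86 and 0.87) and CREB3L4, an androgen-regulated bZIP factor (0.86 and 0.91). FOXA1 was at 60.6 FPKM in siFOXA1, 175 FPKM in siEZH2, 155 FPKM in siRAD21 and 154 FPKM in siCTCF, against 137 FPKM in the control, and without the siFOXA1 library r was 0.85. For SPON2 they were FAM27B (r 0.90), BEND4 (0.87) and KIAA1244 (0.85), and for FN1 MAT1A, a methionine metabolism gene (0.82), TBPL1 (0.81) and IL18BP, which encodes an interleukin-18 antagonist (0.80). COL3A1 was most like COBL (0.86), PLEKHG5 (0.83) and ABHD14B (0.80), COL1A1 like C11orf35 (0.90), TTC36 (0.88) and SLC38A10 (0.87), VIM like LOC284023 (0.80), HIST1H2AD (0.79) and MAPKAPK2 (0.77), and SNAI1 like TMC7 (0.90), NPTXR (0.89) and the calcium channel gene TRPV6 (0.87). The order depended on the measure for some: rho was 0.60 for IL18BP, 0.58 for MAPKAPK2 and 0.58 for PLEKHG5, which ranked them 120, 98 and 61 by rho for their member. Without the siFOXA1 library, which was highest for SNAI1, r for SNAI1 was 0.81 with TMC7, 0.77 with NPTXR and 0.75 with TRPV6. None of the 21 genes named by this rule was itself among the 8 members. Between members, r was 0.60 for COL5A2 and SPON2, 0.57 for FN1 and SPON2, 0.53 for COL5A2 and COL3A1, -0.01 for COL5A2 and COL1A1 and -0.52 for COL5A2 and SNAI1.

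Genes of the same processes were taken from 9 lists. Their counts stand beside the shares of 1.1% higher and 2.04% lower over all genes and knockdowns. Of 11 fibrillar collagens, 4 were kept, namely the members COL5A2, COL3A1 and COL1A1, and COL24A1. This list therefore largely repeats the members. All 3 differences at least 2-fold higher and the 1 lower, of 48, were those of COL5A2. COL24A1 differed from the control by 0.25 in siEZH2. Of 25 genes that process collagen, 17 were kept, with 1 difference higher (0.49%) and 3 lower (1.47%) among 204, both below the shares over all genes. They included PLOD1, a lysyl hydroxylase that modifies procollagen, at 18.5 FPKM in siKDM1A, against 42.9 FPKM in the control (-1.17), in the library where FN1 was highest. TLL1, a protease that trims procollagen ends, was at 11.98 FPKM in siFOXM1, against 40.9 FPKM in the control (-1.69), and P4HA2, a prolyl hydroxylase of collagen, was at 14.2 FPKM, against 5.15 FPKM (1.31). The median of this list stayed between -0.25 and 0.09 in every knockdown, including those with high COL5A2.

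Of 24 matrix glycoproteins beside the members, 4 were kept, with 1 difference higher and 2 lower among 48. TNC, which encodes tenascin-C, gave the 2 lower differences. It was at 2.18 FPKM in siFOXA1, where FN1, SPON2 and COL5A2 were also lowest, against 7.80 FPKM in the control (-1.47). It was nearly as low in siBRCA1, at 2.36 FPKM (-1.39), where FN1 and SPON2 lay above the control and COL5A2 below it (-0.17). Of 13 transcription factors of epithelial-mesenchymal transition beside the members, 7 were kept and 1 of 84 differences was past the mark, LEF1 in siRAD21 at 3.26 FPKM, against 7.93 FPKM in the control (-1.07). Of 24 matrix receptors, 12 were kept, with 4 differences higher and 1 lower among 144, among them the heparan sulfate proteoglycan gene SDC2 at 21.96 FPKM in siFOXA1, against 8.57 FPKM in the control (1.26). Of 22 matrix proteases and inhibitors, 9 were kept, with 7 differences higher (6.48%) and 3 lower (2.78%) among 108. All 7 higher were those of MMP10 (3), MMP13 (3) and MMP7 (1), which were low in the control, at 0.330, 1.09 and 0.248 FPKM. MMP7 had a mean of 0.563 FPKM, close to the filter of 0.5 FPKM, and was highest in siBRCA2, at 1.58 FPKM. That library gave its 1 difference (1.05), and without it MMP7 would not have passed the filter. The share of 6.48% therefore includes a gene kept through the library where it was high. MMP10, a stromelysin that degrades matrix proteins, was at 3.07 FPKM in siRAD21 (1.61), 2.13 FPKM in siFOXM1 (1.23) and 2.02 FPKM in siEZH2 (1.18), against 0.330 FPKM in the control, the lowest library for it. Set against the other 11 knockdowns, MMP10 was at 1.18 in siRAD21 and 0.74 in siEZH2. In siCTCF the matrix protease gene ADAMTS1 was at 74.7 FPKM (-1.26).

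Of 16 kept genes of the TGF-beta pathway, which induces several of the members in other cells, 3 differences were higher and 3 lower among 192 (1.56% each), close to the shares over all genes, and the list median was -0.28 in siRAD21 and 0.11 in siEZH2. The inhibitor of differentiation gene ID1 was at 112 FPKM in siFOXA1 (1.27) and 20.9 FPKM in siRAD21 (-1.10), against 45.9 FPKM in the control. Of 20 kept genes of epithelial adhesion and splicing, 5 differences were higher and 7 lower among 240, and all 7 lower and 2 of the 5 higher were those of KRT19, a simple epithelial keratin. KRT19 was at 17.2 FPKM in siFOXM1 and 12.9 FPKM in siFOXA1, against 2.71 FPKM in the control. It was at 0.125 FPKM in siBRCA1, 0.238 FPKM in siEZH2, 0.528 FPKM in siSMARCA4, 0.597 FPKM in siKDM1A, 0.604 FPKM in siCTCF, 0.634 FPKM in siRAD21 and 0.847 FPKM in siEED, against the same control value. Set against the other 11 knockdowns, none of these 7 was 2-fold lower, with values of -0.72 in siBRCA1 to 0.18 in siEED, while siFOXM1 was at 3.48 and siFOXA1 at 3.09. The junction gene TJP1 was at 93.8 FPKM in siRAD21, against 43.6 FPKM in the control (1.09). The splicing regulator gene ESRP1 was at 14.4 to 21.4 FPKM in the knockdowns, against 17.4 FPKM in the control.

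**Figure D4:**
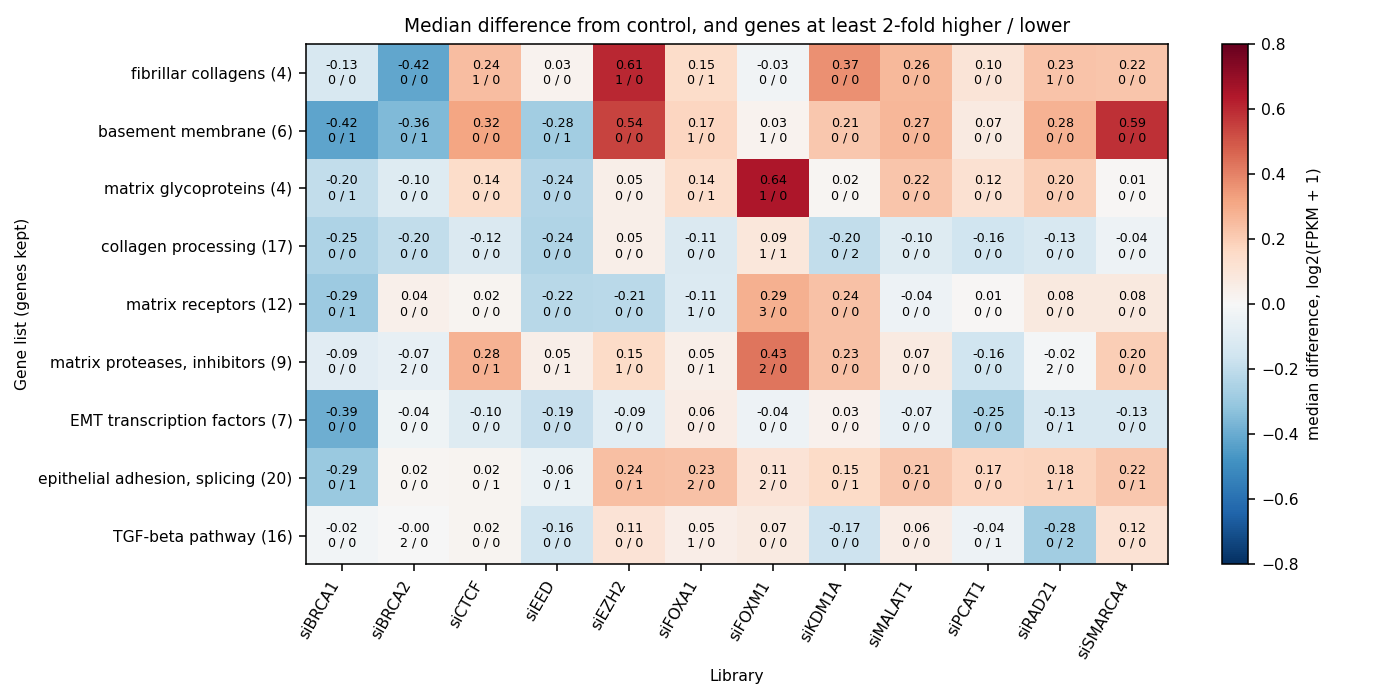
Median difference from the control on the log2(FPKM + 1) scale (upper number and colour) and number of genes at least 2-fold higher / lower (lower numbers) for each gene list (rows, with the genes kept) in each knockdown (columns). The fibrillar collagens, whose kept genes are all members except COL24A1, had their highest median, 0.61, in siEZH2. The collagen processing list stayed between -0.25 and 0.09.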

How the data were processed

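LNCaP-abl cells were profiled by RNA sequencing after transfection with siRNA pools, 1 library for each of 12 knockdowns and 1 control. Per the submitters' processing notes, TopHat and Cufflinks were used on the hg19 build; versions, strand use and further settings are not given in the sources used here. For each library, the authors deposited log2 values of FPKM for 22613 entries. Their floor equals the log2 of 0.1, so they were read as log2(FPKM + 0.1), an offset that comes from the values and from no label. Once sorted, the values differed between the 13 libraries by at most 0.0562 log2 units, so the deposited values share a common distribution, a step that no label records. Levels are therefore relative within that distribution. No counts were used here, and the depth is unknown.

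Values were turned back to FPKM and expressed as log2(FPKM + 1). Genes with a mean of at least 0.5 FPKM were kept, and 759 small RNA entries were left out, leaving 15780 genes. A difference of at least 1 was counted as 2-fold, with no test because each group had 1 library. The members and lists were chosen with earlier results of these data known. The genes named are the members, set partners, the 3 genes with a symbol most like each member by Pearson's r among genes with a standard deviation of at least 0.3, and, of each list, the genes with the largest increase and decrease past 2-fold in a knockdown, of which the text gives some. GULP1, WDR75, the genes overlapping members and the marker genes were named beside them. The level of PCAT1 was not analysed here. Of the marker lists, 1 gene is not reported here. RefSeq (GRCh38.p14) gave promoters and gene order only.

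Results were recomputed with no filter, a pseudocount of 0.1, quantile normalization, centring on the median, the other 11 knockdowns as reference, small RNA entries kept and Spearman's rho. The fold rule was tested on simulated data with changes larger than 2-fold, set only in genes well above the control level of most members. That test therefore does not cover the low members. Python 3.11.15, numpy 2.4.6, pandas 2.3.3 and matplotlib 3.10.9 were used.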

Additional observations from a re-analysis of the deposited data

How the results depend on the processing

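With a pseudocount of 0.1, the 7 kept genes had 13 differences at least 2-fold higher and 4 lower, against 6 and 1 with a pseudocount of 1, and no difference changed sign. When each knockdown was set against the median of the remaining 11 there were 4 higher and 4 lower, and 21 of the 96 differences changed sign. Centring changed the sign of 1 of the 96. No filter on low values, quantile normalization, centring and keeping small RNA entries left the counts at 6 and 1, as did leaving out the library labelled siMALAT1, an alternative chosen after seeing the data. The deposited values already share a distribution, so quantile normalization could change little. Over all genes and knockdowns, 2079 differences were at least 2-fold higher and 3865 lower; with a pseudocount of 0.1 these were 5136 and 7478, with the other knockdowns as reference 1370 and 1618, and with small RNA entries kept 5387 were lower and 3571 higher. No member was set apart in 1 library, with 0 in each alternative run (a pseudocount of 0.1, no filter, quantile normalization, small RNA entries kept, and without the library labelled siMALAT1). Of the 21 likeness values, 16 moved by less than 0.1 with Spearman's rho and 5 by more. The cause of these shifts was not tested. No paired analysis was possible because each group had 1 library, and for the same reason no replicate could be left out. With unknown depth, levels under 1 FPKM (ZEB1 and, in several libraries, COL1A1, COL3A1, VIM and SNAI1) have no counting error that could be given.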

Other observations

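Among matrix genes outside the members, the basement membrane and protease lists held values not described above. AGRN, the basement membrane proteoglycan agrin, was at 16.7 FPKM in siBRCA1, 17.3 FPKM in siEED and 18.0 FPKM in siBRCA2, against 37.5 FPKM in the control, the highest of the 13 libraries for it. The laminin gene LAMC1 was at 37.5 FPKM in siFOXM1 and 36.7 FPKM in siFOXA1, against 17.3 FPKM in the control, which was the lowest of the 13 libraries for it. The collagenase gene MMP13 was at 9.18 FPKM in siFOXM1 and 7.65 FPKM in siBRCA2, against 1.09 FPKM in the control, differences of 2.28 and 2.05. In siFOXM1 the microfibril gene FBN1 was at 2.61 FPKM, against 0.398 FPKM in the control (1.37), and ITGA5, the alpha chain of the classical fibronectin receptor, at 13.3 FPKM, against 5.39 FPKM (1.16). TIMP2, an inhibitor of matrix metalloproteinases, was at 4.98 FPKM in siEED and 5.40 FPKM in siFOXA1, against 13.8 FPKM in the control. Outside the matrix lists, the pan-leukocyte marker PTPRC was at 3.14 FPKM in siRAD21, against 0.946 FPKM in the control (1.09). It was 1 of 3 endothelial and immune markers with values. The others, CD68 and PECAM1, differed by 0.38 and 0.13 in siRAD21.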
